A study of Mus musculus with 3 samples.

Results

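Open chromatin around 6 genes of the extracellular matrix was described in fat cells grown from 3 mouse depots. The genes were Col1a1, Col1a2, Col3a1, Col5a2, Fn1 and Fbn1, and they lie in 5 windows of the genome, since Col3a1 and Col5a2 are neighbours and share one. A member is a DNase I hypersensitive site, a short stretch where the enzyme DNase I cuts exposed DNA often, whose midpoint falls in one of these windows. By this rule 221 of the 172496 listed sites were members: 71 of 60974 in epididymal white fat (eWAT), 83 of 63214 in inguinal white fat (iWAT) and 67 of 48308 in brown fat (BAT). Sites that overlap or touch between lists were merged into regions, of which the windows held 115 of 99297. The windows were chosen by gene position with earlier results from the same lists in view, so the values in them are a description and carry no test.

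The cells were the stromal-vascular cells of fat from male NMRI mice aged 4 to 5 weeks, differentiated in culture and harvested on day 8. All cultures received the same medium with 10% newborn calf serum, 30 nM insulin, 1 µM rosiglitazone (an agonist of the fat cell regulator PPARγ), sodium ascorbate, HEPES, glutamine, streptomycin and penicillin. The brown fat was pooled from interscapular, cervical and axillary depots, and a culture was used if more than 50% of its cells had differentiated. Such cultures can also hold cells that had not differentiated, and fewer cells with an open site cannot be told apart from less opening in each cell. Each depot is represented by 1 library, so differences between depots have no replicate error. The lists name no genes, so the labelled cell types were not checked against markers here.

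The extracellular matrix is the network of secreted proteins that surrounds cells. Col1a1 and Col1a2 encode the 2 kinds of chain of type I collagen, Col3a1 the chain of type III collagen and Col5a2 a chain of type V collagen, which joins type I fibrils. Fn1 encodes fibronectin, to which cells attach, and Fbn1 encodes fibrillin-1, the backbone of microfibrils and the precursor of the fasting hormone asprosin. In fat, fibroblasts and fat cell precursors make much of this matrix, and fibrillar collagen messages fall as precursors become fat cells.

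The sequences just before the start of the genes are shown as background on their promoters. The RefSeq promoter table (GRCm38.p6) matched 3 of the 6 genes. Each run holds the 250 bases before the start, read 5′ to 3′ on the strand of the gene, and capitals mark matches on either strand to 6 short motifs. The motifs were TATAAA (the TATA box), CCAAT (known to bind NF-Y), GGGCGG (a GC box, known to bind Sp1), TGACTCA (known to bind AP-1), GGAATG (known to bind TEAD factors) and TTGCNNAA (known to bind C/EBP factors), where N is any base. The build differs from that of the sites (mm9), so no site was placed on these sequences.
Col1a2: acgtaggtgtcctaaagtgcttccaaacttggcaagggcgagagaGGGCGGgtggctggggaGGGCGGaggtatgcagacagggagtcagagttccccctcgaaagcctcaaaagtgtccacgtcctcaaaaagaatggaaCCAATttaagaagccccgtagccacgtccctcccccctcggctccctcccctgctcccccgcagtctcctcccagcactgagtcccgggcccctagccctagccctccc
Col3a1: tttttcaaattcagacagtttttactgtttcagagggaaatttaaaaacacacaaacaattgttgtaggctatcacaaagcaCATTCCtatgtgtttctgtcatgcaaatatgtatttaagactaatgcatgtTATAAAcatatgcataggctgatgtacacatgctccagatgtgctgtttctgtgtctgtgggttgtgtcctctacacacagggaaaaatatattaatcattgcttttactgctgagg
Fbn1: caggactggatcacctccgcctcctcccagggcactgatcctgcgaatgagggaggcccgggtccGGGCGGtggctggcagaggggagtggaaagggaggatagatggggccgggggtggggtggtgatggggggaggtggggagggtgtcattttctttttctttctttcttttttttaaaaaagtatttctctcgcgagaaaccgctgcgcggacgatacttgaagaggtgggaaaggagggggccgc
The Col1a2 run held GGGCGG at 2 places and CCAAT at 1, and the Fbn1 run held GGGCGG at 1. Among the 32851 promoters of the table, 32.7% held GGGCGG and 33.9% held CCAAT in the same 250 bases. The Col3a1 run held TATAAA and GGAATG at 1 place each, which 12.4% and 12.6% of the promoters did. TGACTCA, found in 4.46% of promoters, and TTGCNNAA, found in 9.56%, were not in these 3 windows. The Col1a2 and Fbn1 runs were 62.0% and 59.2% G and C and the Col3a1 run 35.2%, where the median promoter had 52.4%.

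The strength of a site is given by the authors' normalized tag count and by its rank, the percentile of that count among all sites of the same list with ties averaged. Ranks, not levels, are set side by side between depots, because the total to which each library was scaled is not known. Strong sites are those whose count falls in the highest 25% of a list. Because of ties 25.6% of all eWAT sites, 26.1% of all iWAT sites and 26.2% of all BAT sites were strong. Of the members, 37 of 71 were strong in eWAT (52.1%), 40 of 83 in iWAT (48.2%) and 22 of 67 in BAT (32.8%). The 95% exact binomial intervals were 39.9 to 64.1%, 37.1 to 59.4% and 21.9 to 45.4%. These intervals reflect counting error alone, and sites near each other may not vary independently. The BAT interval includes the share of the whole BAT list, and those of eWAT and iWAT lie above theirs. The BAT interval also overlaps those of eWAT and iWAT, so this describes each list on its own and does not set the depots apart.

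Of the 115 regions, 40 were held by all 3 lists. This was 34.8% (95% exact interval 26.1 to 44.2), beside 25.2% of all regions. The share depends on what counts as shared: it was 22.9% where sites had to overlap by 50% of their width, beside 18.1% of all regions, and 47.1% where sites within 200 bp were merged, beside 34.6%. Another 26 were held by exactly 2 lists, and the others by 1: 17 by eWAT only (14.8%, beside 19.6% of all regions), 20 by iWAT only (17.4%, beside 20.5%) and 12 by BAT only (10.4%, beside 11.4%). The shares of single-depot regions were thus near or below those of all regions. Counts of other genes of the matrix were not made, since no mm9 gene annotation was used here.

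**Figure D1:**
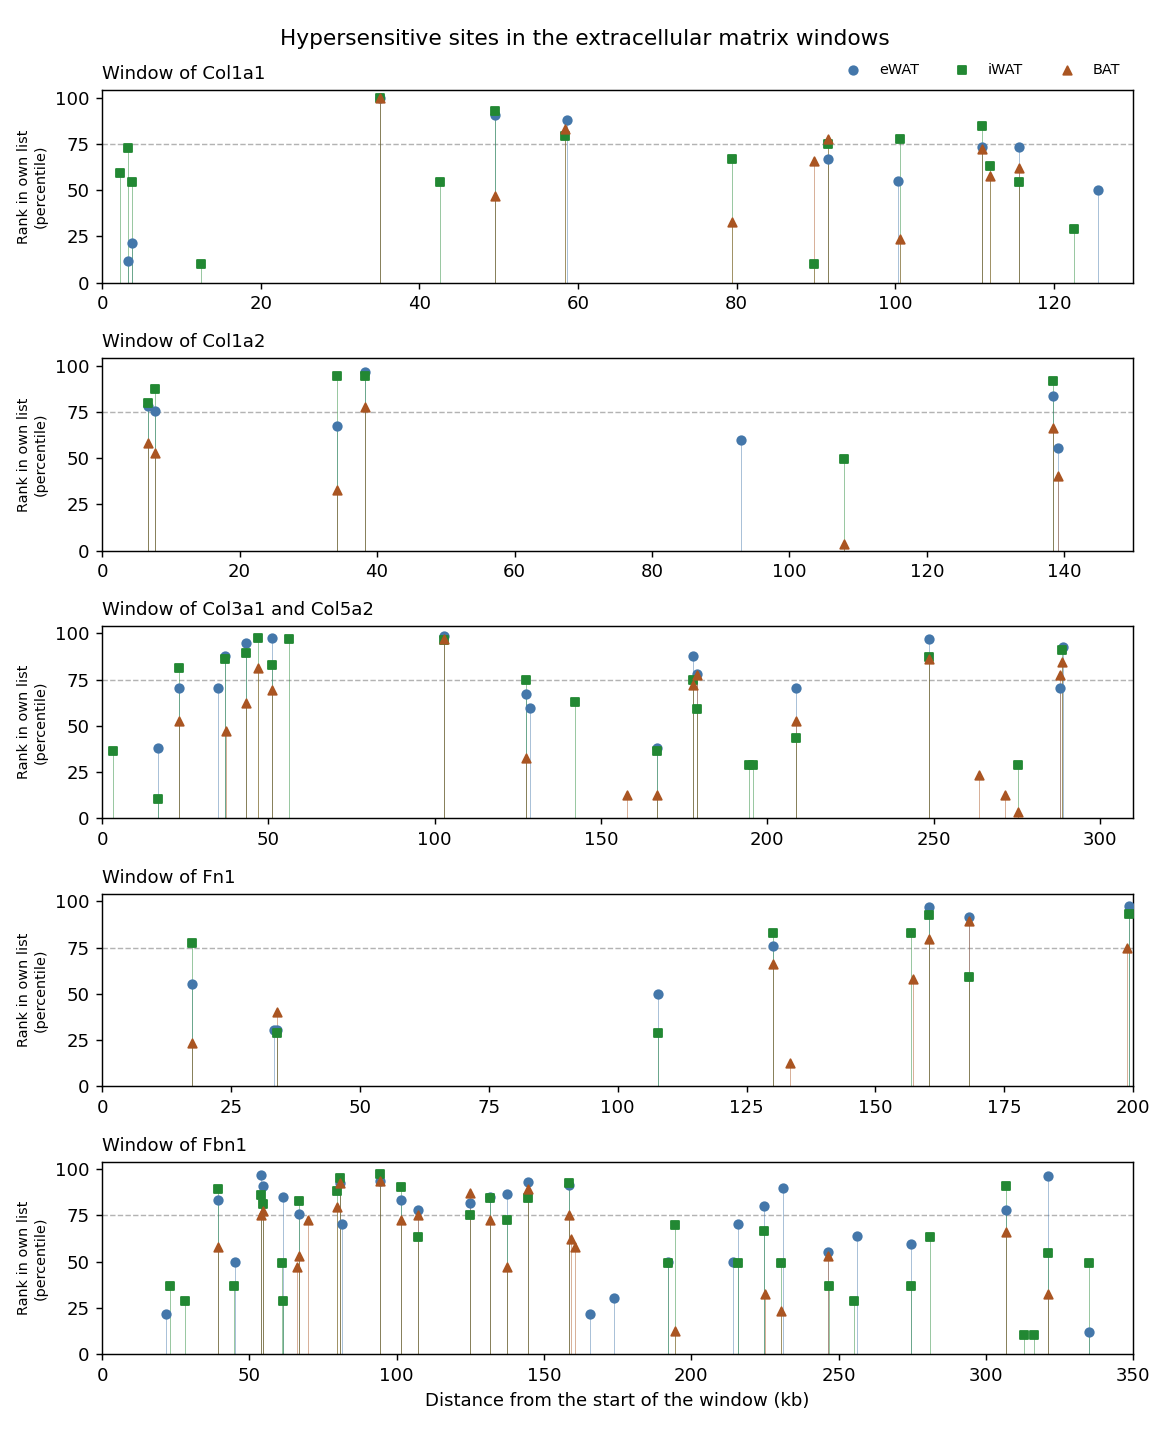
Rank in its own list (percentile, vertical axis) of each hypersensitive site against its distance in kb from the start of its window (horizontal axis), with 1 panel per window and 1 marker per depot (eWAT, iWAT, BAT, 1 library each). The dashed line at 75 marks the top 25% of a list. In the Fbn1 window most strong sites lie left of its midpoint, with 14 of 18 in eWAT, 12 of 13 in iWAT and 9 of 9 in BAT.

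The Col1a1 window ran from 94740000 to 94870000 on chromosome 11 (mm9, as all positions here) and held 10 sites in eWAT against 16 in iWAT and 10 in BAT. In the order of the RefSeq gene table (GRCm38.p6) Col1a1 (gene ID 12842) lies between Gm11544 and Sgca. Of all windows of this length laid end to end over the genome, 0.310% held at least 16 iWAT sites, while 5.20% held at least 10 eWAT sites and 2.74% at least 10 BAT sites. The 19 regions comprised 5 in all lists, 7 in 2 lists and 7 in 1 list. Of the 7 in 2 lists, 5 were held by iWAT and BAT and 2 by eWAT and iWAT.

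The strongest region of all 5 windows lay here, from 94774866 to 94775117. It held 53.5 normalized tags in eWAT against 93.6 in iWAT and 66.0 in BAT, which are 90, 95 and 77 sequenced tags. It was number 69 of the eWAT list, number 57 of the iWAT list and number 122 of the BAT list, which is the 99.9th, 99.9th and 99.7th percentile. Tags were 22.7, 25.7 and 26.0 times as dense as in the surroundings (fold over the surroundings, a deposited value). It was thus among the most open places of each depot.

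A second common region of this window, from 94789466 to 94789732, had its lowest rank in BAT. It held 19.6 normalized tags in eWAT (33 tags, 90.7th percentile) against 34.5 in iWAT (35 tags, 93.0th) and 12 in BAT (14 tags, 47.1st). Ranks that correspond to the 95% Poisson interval of the tags, which covers counting error only, ran from 82.2 to 97.8 in iWAT and from 0 to 80.5 in BAT. They did not overlap between iWAT and BAT, while the eWAT interval of 74.4 to 97.3 overlapped both. By fold over the surroundings this region stood 9.11, 8.76 and 7.40 times above them, and the iWAT rank was then 8.68 points above the BAT rank in place of 46.0.

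The third region by mean rank, from 94850849 to 94851160, held 13.1, 25.6 and 17.1 normalized tags (in the order eWAT, iWAT, BAT), at the 73.1st, 84.5th and 72.4th percentile. A pair of regions next to each other shows how calls can shift between lists. The region from 94798283 to 94798524 was held by iWAT (22.7 normalized tags, 79.5th percentile) and BAT (21.4, 83.0th). The eWAT site (17.8 normalized tags, 87.8th percentile) was listed 41 bp away from 94798565 to 94798785, and so counted as the strongest region of the window held by eWAT only. The fold over the surroundings of these sites was 4.17 in iWAT, 5.65 in BAT and 4.66 in eWAT, near the lowest fold in the lists, which was 4. The strongest region held by iWAT only, from 94742173 to 94742395, held 15.8 normalized tags (59.1st percentile) and lay 0.730 kb from an eWAT site. No region of this window was held by BAT only.

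The Col1a2 window ran from 4400000 to 4550000 on chromosome 6 and was the sparsest in regions, with 7 sites in eWAT against 6 in iWAT and 7 in BAT. In the gene table Col1a2 (gene ID 12843) lies between Bet1 and Casd1. Of its 8 regions, 5 were in all lists, 2 in 2 lists and 1 in eWAT only. Each of the 5 common regions ranked lowest in BAT, beside 47.5% of all regions with 1 site from each list. The median rank of the 5 was 78.0 for eWAT, 91.7 for iWAT and 57.9 for BAT. Between 4438451 and 4492900, a stretch of 54.5 kb, no list held a site.

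The largest iWAT against BAT difference of any common region in the 5 windows was here, from 4434095 to 4434366. It held 11.9 normalized tags in eWAT (20 tags) against 36.4 in iWAT (37 tags) and 10.3 in BAT (12 tags). The ranks were 67.1, 94.2 and 32.6, so that iWAT stood 61.6 points above BAT and 27.0 above eWAT. The counting interval of iWAT (85.3 to 98.3) lay above that of BAT (0 to 73.8) and overlapped that of eWAT (26.3 to 88.3). By fold over the surroundings, which was 4.54 for eWAT, 9 for iWAT and 4.74 for BAT, the iWAT rank was still 37.6 points above the BAT rank.

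The region 3.83 kb further on, from 4438194 to 4438451, had the highest mean rank of the Col1a2 window. It held 26.2, 36.4 and 18.8 normalized tags (in the order eWAT, iWAT, BAT), at the 96.6th, 94.2nd and 77.4th percentile. The 2 sites at this pair of places had the same tag count in iWAT, whereas eWAT and BAT both ranked the second above the first. Towards the end of the window, the region from 4538208 to 4538452 held 16.1, 32.5 and 15.4 normalized tags, at ranks of 83.6, 91.7 and 66.0. Near its beginning, the region from 4407449 to 4407828 held 13.7, 27.6 and 12.8, at ranks of 75.6, 87.2 and 52.9. iWAT was the highest of the 3 depots by rank in 4 of the 5 common regions, beside 37.3% of all regions with 1 site from each list. The counting intervals of the last 2 named regions overlapped between all depots. The region held by eWAT only, from 4492900 to 4493120, held 10.7 normalized tags (59.7th percentile) and had the nearest site of another depot 14.7 kb away, in BAT.

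The window of Col3a1 and Col5a2 ran from 45310000 to 45620000 on chromosome 1, with 16 sites in eWAT against 20 in iWAT and 18 in BAT. The gene table lists Col3a1 (gene ID 12825) and Col5a2 (gene ID 12832) next to each other, between Gulp1 and Wdr75. Of the 28 regions, 10 were in all lists, 6 in 2 lists and 12 in 1 list. In each of the 10 common regions eWAT ranked above BAT, beside 61.9% of all regions with 1 site from each list. iWAT ranked above BAT in 7 of the 10 (70.0%), near the 61.9% of all such regions. The median ranks of the 10 were 82.9 for eWAT, 78.2 for iWAT and 65.8 for BAT.

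The strongest common region here, from 45412694 to 45412924, was alike in rank in all depots, which a high mean rank makes likely. It held 32.1 normalized tags in eWAT (54 tags) against 42.4 in iWAT (43 tags) and 37.7 in BAT (44 tags), at the 98.6th, 96.5th and 96.9th percentile. It stood alone, with no listed site for 46.3 kb before it and 24.4 kb after it. The region from 45558399 to 45558658 held 27.4, 27.6 and 23.1 normalized tags, at ranks of 97.1, 87.2 and 86.0.

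A run of 7 regions within 21.7 kb, from 45344681 to 45366367, held strong sites mostly of white fat. They numbered 3 of 4 in eWAT, 5 of 5 in iWAT and 1 of 4 in BAT. Within it the region from 45360983 to 45361258 held 28.5 normalized tags in eWAT (48 tags, 97.6th percentile) against 24.6 in iWAT (25 tags, 82.9th) and 16.3 in BAT (19 tags, 69.3rd). The counting interval of eWAT (92.7 to 99.4) lay above that of BAT (28.4 to 88.9). The region from 45353152 to 45353515 held 23.2, 29.6 and 14.6 normalized tags, at ranks of 94.6, 89.3 and 62.2, and here the intervals of eWAT (84.4 to 98.5) and BAT (6.6 to 86.6) overlapped. Its fold over the surroundings was 5.01, 4.35 and 4.41, near the lowest listed fold of 4. By fold eWAT ranked 11.3 points above BAT here in place of 32.4. In the region from 45360983 to 45361258 the difference was 28.55 points by fold and 28.3 by tags.

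The same run held the strongest single-depot region of the 5 windows. It lay from 45366145 to 45366367 and was listed in iWAT only, with 44.3 normalized tags (45 tags) at the 97.1st percentile. The nearest site of another depot was in eWAT, 4.89 kb away. Its tag density was 4.91 times that of its surroundings, beside a median of 9.91 in the iWAT list, and a site below 4 times would not have been listed. Tag counts of the other libraries at this place were not at hand, so its absence from their lists does not show that the place was closed there. In the same run, the region from 45356873 to 45357112 was held by iWAT with 46.3 normalized tags (97.5th percentile) and by BAT with 20.6 (81.4th), but not by eWAT. This region falls outside the rule for named regions and was singled out after its values were seen.

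In 2 weaker common regions of this window BAT also ranked lowest. From 45437312 to 45437568 the ranks were 67.1 for eWAT, 75.1 for iWAT and 32.6 for BAT, from 11.9, 20.7 and 10.3 normalized tags. From 45332916 to 45333370 they were 70.3, 81.3 and 52.9, from 12.5, 23.6 and 12.8 normalized tags. The intervals overlapped in both. The strongest region held by eWAT only, from 45598911 to 45599131 (21.4 normalized tags, 92.9th percentile), had a BAT site 72 bp away. The strongest held by BAT only, from 45347278 to 45347500 (12 normalized tags, 47.1st percentile), had an iWAT site 109 bp away.

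The Fn1 window ran from 71570000 to 71770000 on chromosome 1 and held 8 sites in each list. In the gene table Fn1 (gene ID 14268) lies between Atic and Mreg. Its 12 regions comprised 5 in all lists, 2 in eWAT and iWAT, 3 in BAT only and 1 each in eWAT only and iWAT only. Its density of sites was unremarkable, since 25.3%, 26.4% and 17.0% of grid windows of this length held at least 8 sites in eWAT, iWAT and BAT. Strong sites lay mostly after its midpoint, namely 4 of 4 of eWAT, 4 of 5 of iWAT and 3 of 3 of BAT, and no list held a site for 73.7 kb between 71603983 and 71677670.

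The common regions of the Fn1 window did not share 1 order of depots. BAT was the lowest in 3 of the 5, beside 47.5% of all regions with 1 site from each list. The strongest, from 71730265 to 71730525, held 26.8 normalized tags in eWAT (45 tags) against 33.5 in iWAT (34 tags) and 19.7 in BAT (23 tags), at ranks of 96.9, 92.4 and 79.5. From 71738027 to 71738274 the order was another, with 20.2, 15.8 and 25.7 normalized tags at ranks of 91.5, 59.1 and 89.4. This was the 1 of the 40 common regions in which BAT ranked at least 25 points above iWAT. It stood 24.4 times above its surroundings in BAT, 14.1 times in eWAT and 9.52 times in iWAT, so that the fold also placed iWAT last. The counting intervals of its ranks overlapped between eWAT (76.8 to 97.5) and iWAT (15.6 to 83.7).

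At the beginning of the Fn1 window, the region from 71587308 to 71587596 ranked 77.4 in iWAT, 55.2 in eWAT and 23.4 in BAT, from 21.7, 10.1 and 9.42 normalized tags. The intervals overlapped, and by fold over the surroundings the order of iWAT and BAT turned (13.8 and 14.2 times, -7.59 points). The region from 71699934 to 71700198 held 13.7, 24.6 and 15.4 normalized tags (in the order eWAT, iWAT, BAT), at ranks of 75.6, 82.9 and 66.0. The strongest single-depot regions of the Fn1 window all had a site of another depot nearby. In iWAT it lay from 71726832 to 71727054 (24.6 normalized tags, 82.9th percentile) with a BAT site 105 bp away. In BAT it lay from 71768782 to 71769004 (18 normalized tags, 75th percentile) with an eWAT site 23 bp away. The eWAT region, from 71603277 to 71603497, held 7.73 normalized tags (30.4th percentile) and had an iWAT site 213 bp away.

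The Fbn1 window ran from 125050000 to 125400000 on chromosome 2 and was the densest in sites common to all depots. It held 30 sites in eWAT against 33 in iWAT and 24 in BAT, in 48 regions. In the gene table Fbn1 (gene ID 14118) lies between Dut and Cep152. Of grid windows of this length, 0.569%, 0.357% and 1.18% held at least as many sites in eWAT, iWAT and BAT, and 0.768% held at least 15 common regions. BAT ranked lowest in 10 of these 15 (66.7%), beside 47.5% of all regions with 1 site from each list. The median ranks were 86.5, 84.5 and 75 (in the order eWAT, iWAT, BAT).

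The common regions of the Fbn1 window were crowded before its midpoint, a split chosen after seeing the map. The stretch before the midpoint held 13 of the 15 common regions and 19, 19 and 18 sites of eWAT, iWAT and BAT. The stretch after it held 2 common regions and 11, 14 and 6 sites. Its longest run of regions with gaps under 10 kb had 13 regions in 42.4 kb, from 125089112 to 125131540. In 7 of the 15 common regions (46.7%) the sites of all 3 depots were strong, beside 27.2% of all regions with 1 site from each list. Over the 5 windows this held in 12 of 40 (30.0%), near the share of all regions, and in the windows of Col1a1, Col1a2 and Fn1 in 1 of 5 each and in that of Col3a1 and Col5a2 in 2 of 10.

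The 3 highest common regions of the Fbn1 window were close in rank between the depots. From 125144307 to 125144560 there were 22 normalized tags in eWAT (37 tags) against 46.3 in iWAT (47 tags) and 30.8 in BAT (36 tags), at ranks of 93.5, 97.5 and 93.7. From 125130621 to 125130915 there were 20.8, 39.4 and 29.1, at ranks of 92.3, 95.5 and 92.5. From 125194362 to 125194764 there were 21.4, 25.6 and 25.7, at ranks of 92.9, 84.5 and 89.4. The ranks of each region differed by at most 8.4 points, though picking regions by a high mean rank limits how far their ranks can differ.

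The largest difference of all common regions in the 5 windows lay near the end of the Fbn1 window, from 125370916 to 125371206. It held 26.2 normalized tags in eWAT (44 tags) against 14.8 in iWAT (15 tags) and 10.3 in BAT (12 tags). The ranks were 96.6, 54.6 and 32.6, so that eWAT stood 63.9 points above BAT and 42.0 above iWAT. Its counting interval (90.3 to 99.1) lay above those of iWAT (5.1 to 82.2) and BAT (0 to 73.8). The tag density over the surroundings was 20.6 times for eWAT, 9.58 for iWAT and 9.23 for BAT, and by this measure eWAT ranked 48.6 points above BAT. This is the opposite white depot to the Col1a2 region from 4434095 to 4434366, in which iWAT was the high one.

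In 4 other Fbn1 regions BAT ranked lowest and at least 25 points below the highest depot, and the intervals of the highest and the lowest depot overlapped in each. From 125187321 to 125187755 the ranks were 86.5 for eWAT, 72.6 for iWAT and 47.1 for BAT. From 125089112 to 125089360 they were 83.6, 89.3 and 57.9, and from 125116466 to 125117043 they were 75.6, 82.9 and 52.9. In the latter the sites overlapped only in a chain and no base was common to all 3 depots, so its ranks belong to neighbouring places. From 125356547 to 125356791 the ranks were 78.0, 91.0 and 66.0, and this region stood 39.2 times above its surroundings in iWAT, 13.0 in eWAT and 11.8 in BAT. Of the regions held by 1 list, the strongest in eWAT lay from 125280906 to 125281126 (19 normalized tags, 89.8th percentile, an iWAT site 167 bp away). In iWAT it lay from 125330934 to 125331156 (16.7 normalized tags, 63.1st percentile, an eWAT site 6.29 kb away). In BAT it lay from 125119768 to 125119990 (17.1 normalized tags, 72.4th percentile, an iWAT site 2.88 kb away).

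**Figure D2:**
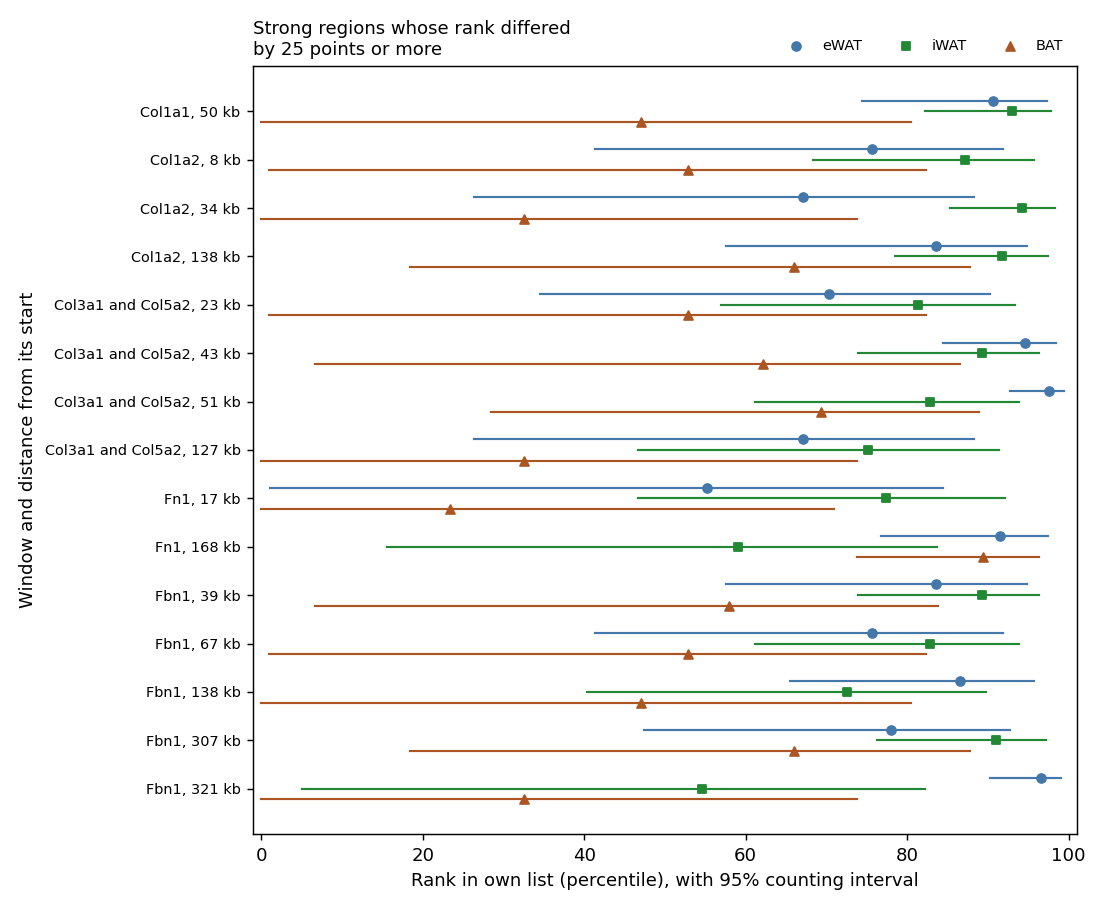
Rank in its own list (percentile, horizontal axis) of the 15 common regions that were strong in at least 1 list and differed by 25 points or more, labelled by window and distance from its start (vertical axis). Bars are the 95% Poisson intervals of the tags turned into ranks (counting error only, 1 library per depot), and BAT is the lowest marker in 14 of the 15, beside 55.5% of the 5394 regions of the whole lists picked by the same 2 limits. In the regions at 23 kb (Col3a1 and Col5a2) and 67 kb (Fbn1) no base was common to the sites of all 3 depots.

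Over the 5 windows as a whole the common regions ranked lower in brown fat than in the white depots. The median differences from BAT were small in the Col1a1 window, which had 5 common regions. The 40 regions each had exactly 1 site from each list. Their median rank was 83.6 for eWAT, 83.7 for iWAT and 70.9 for BAT, beside 70.3, 72.6 and 66.0 over all 24988 such regions. BAT had the lowest rank in 28 of the 40 (70.0%, beside 47.5%). eWAT ranked above BAT in 35 of 40 and iWAT above BAT in 30 of 40, beside 61.9% of all regions for either depot. The median difference was 15.9 points for eWAT minus BAT and 13.3 for iWAT minus BAT, beside 3.94 and 4.12. The white depots were balanced against each other, with eWAT above iWAT in 21 of 40 and a median difference of 0.92 points, beside 0.48. In the Col1a1 window the median ranks of the 5 common regions were 73.1, 84.5 and 72.4 (in the order eWAT, iWAT, BAT), and the median differences from BAT were 0.73 points for eWAT and 0.16 for iWAT, below those of all regions. In the Fn1 window the median ranks were 75.6, 77.4 and 66.0, and the median differences from BAT were 9.66 and 12.9 points. By count these 2 windows were alike, with eWAT above BAT in 4 of 5 common regions and iWAT above BAT in 3 of 5. BAT was the lowest in 3 of 5 in each.

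**Figure D3:**
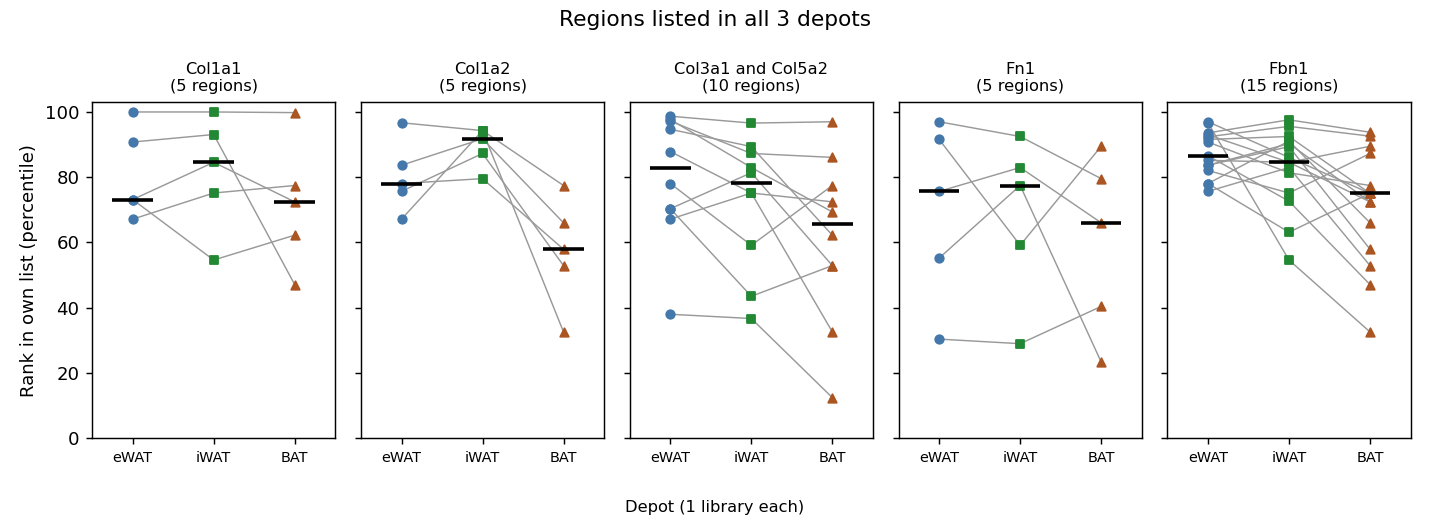
Rank in its own list (percentile, vertical axis) of the 40 regions listed in all 3 depots, by depot (horizontal axis, 1 library each) and window (panels). Grey lines join the sites of 1 region and black bars are medians, and in the Col1a2 panel the BAT marker is the lowest of each of the 5 lines.

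A difference of at least 25 percentile points was called. eWAT stood that far above BAT in 10 of the 40 regions (25.0%, beside 19.8% of all) and iWAT above BAT in 12 (30.0%, beside 18.9%). The 95% exact intervals of the members' shares, 12.7 to 41.2% and 16.6 to 46.5%, include the shares of all regions for eWAT and for iWAT. BAT stood that far above eWAT in 0 of the 40 (beside 8.02%, with an exact upper limit of 8.81% for a count of 0) and above iWAT in 1 (2.5%, beside 7.67%). eWAT stood that far above iWAT in 3 (7.5%, beside 10.3%) and iWAT above eWAT in 1 (2.5%, beside 10.3%). The regions with such a difference and a strong site numbered 15 of the 40 (37.5%), beside 21.6% of all regions with 1 site from each list. In 4 of these 15 named differences the counting intervals of the highest and the lowest depot did not overlap: 1 each in the windows of Col1a1, Col1a2, Col3a1 and Col5a2, and Fbn1. How often the intervals failed to overlap over the whole lists was not counted, so no share stands beside the 4.

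**Figure D4:**
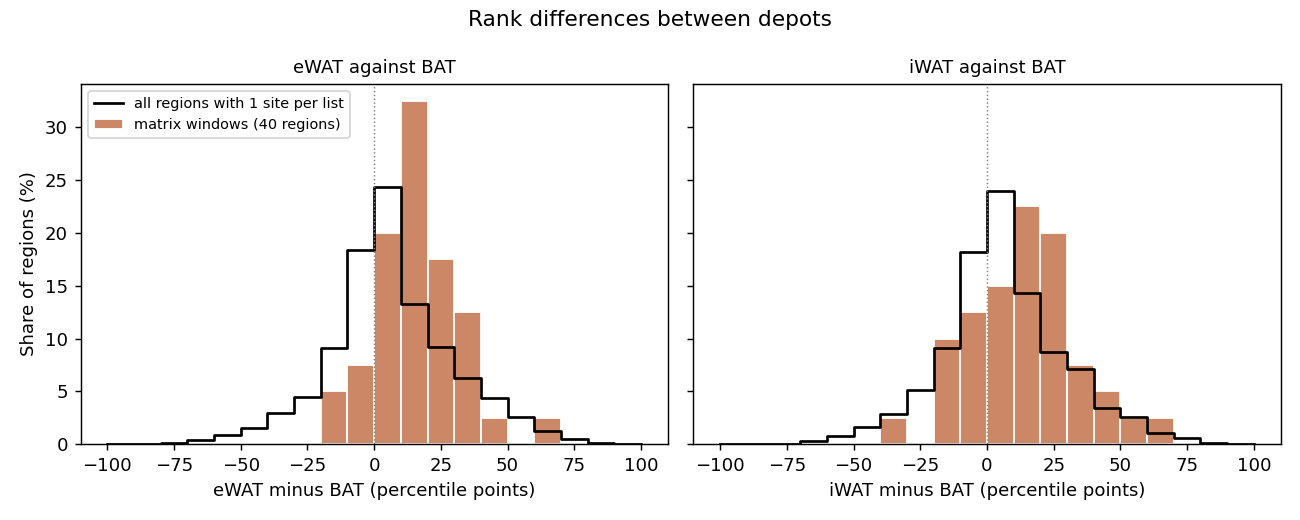
Share of regions (%, vertical axis) by the difference in rank between depots in percentile points (horizontal axis), for eWAT minus BAT on the left and iWAT minus BAT on the right. Bars are the 40 common regions of the matrix windows and the black line is all 24988 regions with 1 site from each list, with medians of 15.9 and 3.94 points on the left and 13.3 and 4.12 on the right.

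BAT had the shortest list, and whether the length of the lists plays a part in the lower BAT ranks was not tested. With ranks taken in lists of equal length, a setting chosen after seeing the data, the median difference of the 40 regions was 10.0 points for eWAT minus BAT and 7.64 for iWAT minus BAT, beside 0.08 and 0.10 over all such regions. BAT was then the lowest in 24 of the 40, beside 35%, and iWAT stood at least 25 points above BAT in 6, beside 12.4%. Ranks among the common regions alone gave medians of 13.2 and 9.81 points, beside 0.002 and 0.08. Ranked by fold over the surroundings, eWAT was above BAT in 27 of the 40 (beside 52.4% of all), and the median difference was 6.96 points (beside 0.72). By that measure iWAT was above BAT in 20 of the 40 (beside 51.5%), with a median difference of 0.78 points (beside 0.41).

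The sites of these windows stood less far above their surroundings than the sites of the whole lists. The median fold over the surroundings of the members was 5.93 for eWAT, 7.62 for iWAT and 6.75 for BAT, beside 7.46, 9.91 and 9.23 in the whole lists. A fold under 6 was found in 52.1%, 28.9% and 40.3% of the members, beside 28.8%, 14.4% and 16.5% of all sites. Among the 40 common regions the median rank by fold was 42.0, 38.9 and 32.8, beside 63.1, 62.9 and 61.3 over all common regions. The deposited lists hold no site under 4 times its surroundings, so a place in a broadly open stretch can be missing from a list. The spacing of sites differed between the windows. The median distances between neighbours of a list were 9.01, 6.77 and 7.18 kb (in the order eWAT, iWAT, BAT) in the Fbn1 window and 10.1, 7.56 and 9.04 kb in the Col1a1 window, beside 15.9, 14.8 and 18.7 kb in the whole lists. They were 22.1, 22.3 and 16.4 kb in the Fn1 window, 15.3, 26.65 and 15.4 kb in the Col1a2 window and 10.7, 13.2 and 10.8 kb in the window of Col3a1 and Col5a2. The median focus ratio, the authors' measure of how sharply tags are centred, was 0.67, 0.68 and 0.69 in the members, beside 0.69, 0.70 and 0.70.

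Regions held by 1 list had lower ranks than common regions, here as in the whole lists. Their median rank was 55.2 for eWAT, 36.7 for iWAT and 47.1 for BAT, beside 30.4, 29.0 and 32.6 over all regions held by that list only. Strong ones numbered 3 of 17 in eWAT (beside 6.87% of all), 2 of 20 in iWAT (beside 7.95%) and 1 of 12 in BAT (beside 9.13%). Of these 6, 5 lay less than 1 kb from a site of another list, and the iWAT region of the Col3a1 and Col5a2 window was the exception. In all, 9 of the 17 eWAT regions had one within 1 kb (beside 34.2%), 7 of the 20 iWAT regions (beside 37.2%) and 6 of the 12 BAT regions (beside 44.9%).

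The edges of the windows are set by the rule and not by the data. The Fn1 window ended 0.862 kb after its strongest iWAT site (34.5 normalized tags, 93.0th percentile), and the next site beyond was an eWAT site 7.16 kb outside at the 82.0th. The Col1a1 window ended 0.214 kb before an iWAT site at the 29.0th percentile, and its last site inside, in eWAT at the 50.1st, lay 4.40 kb from the edge. Outside the Col3a1 and Col5a2 window the nearest eWAT site before the beginning stood at the 95.1st percentile, 10.5 kb away, and the first site inside was an iWAT site at the 36.7th, 3.37 kb from the edge.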

How the data were processed

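DNase-seq was done on fat cells differentiated from 3 depots, with 1 library each. STAR, HOMER and mm9 are named, without roles or settings, in the submitters' processing notes, and per the file headers the columns are those of HOMER's findPeaks. Each depot has a list of its own, and the labels do not say if it comes from 1 culture or a pool. The deposited normalized tag count is treated as a signal relative to a library total that neither the labels nor the headers state. The deposited lists also hold a peak score, a focus ratio (a fraction), a fold (ratio) over the surroundings of at least 4 with its p-value, and a clonal fold. Coordinates are as deposited, in mm9.

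Whole tags were recovered from the step of the normalized tag count, 0.595 for eWAT, 0.985 for iWAT and 0.857 for BAT, and 100% of values were whole multiples within 0.05 (0.005 below 10). The median site held 16, 14 and 14 tags. With no replicates, no test between depots was made. Members and lists were chosen with earlier results of these data known. Named regions were the 3 common regions of highest mean rank per window, strong common regions with a rank difference of at least 25 points (up to 5), and the strongest single-depot region per depot and window. Grid windows ran end to end from each chromosome start to its last site. Other settings were the overlap, merging distance, list length, minimum count, window edges, rank measure, size of difference and grid. On 20000 simulated regions the merging code gave the right class in 100%. The simulated regions lay far apart, and within each region all sites overlapped one another. Regions close together and sites that overlap only in a chain were thus not simulated. The result therefore does not show how the code treats such sites of the real lists. Python 3.11.15, numpy 2.4.6, pandas 2.3.3, scipy 1.17.1 and matplotlib 3.10.9 were used.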

Additional observations from a re-analysis of the deposited data

How the results depend on the processing

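Settings with ranks in lists of equal length, with a common minimum score and with a window left out were chosen after seeing the data. Common regions were 22.9% of the members when sites had to share 50% of their width (18.1% over the whole lists) and 47.1% when sites within 200 bp were merged (34.6%). Regions in eWAT only then numbered 26 of 131 and 11 of 102. Regions in BAT only numbered 7 of 102 with sites within 200 bp merged and 7 of 88 in the top 50% of each list. The shares of such single-list regions over the whole lists were not counted at these settings. With shorter windows those in iWAT only numbered 13 of 90, beside 20.5% of all regions. Counts of regions with a difference of at least 25 points are given as eWAT over BAT, iWAT over BAT, BAT over eWAT, BAT over iWAT, eWAT over iWAT, and iWAT over eWAT. They were 7, 6, 1, 4, 5 and 2 of 40 in lists of equal length (eWAT minus BAT 10.0 points). The shares of all such regions were then 13.8, 12.4, 12.6, 13.4, 12.3 and 10.6%. By fold over the surroundings the counts were 7, 4, 3, 4, 8 and 3 of 40. The shares of all such regions were 13.5, 13.5, 12, 11.5, 12 and 12.1% by this measure. Median ranks by fold were 42.0, 38.9 and 32.8 in eWAT, iWAT and BAT, and median differences from BAT were 6.96 and 0.78 points. Among common regions the counts were 8, 11, 0, 3, 5 and 2, beside 13.4, 13.1, 13.7, 13.3, 11.1 and 11.1% of all such regions. The median ranks were then 68.7 in eWAT and 68.2 in iWAT. By deposited score BAT over iWAT numbered 0, beside 7.08% of all such regions. With a limit of 15 points the counts were 21, 19, 0, 2, 5 and 2, and with 35 points 3, 4, 0, 0, 1 and 0. The shares over all regions were not counted at these 2 limits. Leaving out a window also lowers the number of regions counted. Without the Col3a1 and Col5a2 window, which held 10 of the 40, eWAT over BAT numbered 6 (beside 19.8% of all regions). The median eWAT minus iWAT then turned to -1.19. Without the Col1a2 window, which held 5 of the 40, iWAT over eWAT numbered 0 (beside 10.3%). Without the Fn1 window, which also held 5, BAT over iWAT numbered 0 (beside 7.67%). The Fn1 region from 71587308 turned from 54.0 to -7.59 points (iWAT minus BAT) by fold. The causes were not tested. No paired analysis was possible because each depot has 1 library. The depth of a site, 14 to 16 tags at the median, limits how finely single ranks can be told apart.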
